A study of Mus musculus with 12 samples.

Results

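The FOS and JUN families encode the subunits of AP-1, and 6 of their genes (*Fos*, *Fosb*, *Fosl2*, *Jun*, *Junb* and *Jund*) were followed in mouse thymocytes that carry or lack MED23, a subunit of the Mediator complex. Members were all probe sets whose only annotated gene symbol was one of these 6, which gave 8 of the 12488 probe sets on the array, with 2 each for *Fos* and *Junb* and 1 each for the other genes. All 8 reached the minimum used here, for which the mean over the mice of 1 condition or more had to be 100 or above. *Jun* and 1 of the *Fos* probe sets did so in a single condition. *Fos* was the member with the clearest response to αCD3. On 1 of its 2 probe sets (160901_at) the αCD3 signal was above the mock signal in all 6 mice, null mice included, as in 3.61% of all probe sets. On the other (161716_at) it was above mock in all control mice and slightly below in both null mice, as in 1.83% of all probe sets. That probe set was below 100 on 8 of 12 arrays, and its mean reached the minimum only in αCD3-treated *Lck-Cre* thymocytes. Its difference in induction did not pass (adjusted p = 0.992 in limma). The other members changed little or not in the same way in all mice. Among them, *Junb* 102362_i_at was above mock in all 4 control mice, as in 9.16% of all probe sets, and in 1 of 2 null mice. Its change in control mice did not pass (adjusted p = 0.215 in limma), and the other *Junb* probe set did not share it. No member passed the tests between MED23 null and control thymocytes, in which 0% of all probe sets passed.

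JUN proteins form dimers with each other or with FOS proteins, whereas FOS proteins need a JUN partner, and the dimers bind the sequence TGANTCA. *Fos*, *Fosb*, *Jun* and *Junb* are immediate early genes, which are transcribed within minutes of a stimulus without new protein synthesis and shut off again soon after, while *Jund* is expressed in resting cells of most tissues. In T-cells the T-cell receptor drives *Fos* through ERK and the ELK factors that sit with SRF on its promoter, JNK phosphorylates JUN, and AP-1 then binds together with NFAT at cytokine genes. Phosphorylated ELK1 is known to contact Mediator through MED23.

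Total thymocytes came from *Med23flox/flox;Lck-Cre* mice (MED23 null), from *Med23+/+;Lck-Cre* mice (*Lck-Cre*) and from *Med23flox/flox* mice without Cre, with 2 mice of each genotype, and the *Lck-Cre* and *Med23flox/flox* mice together are called control (4 mice). All were female C57Bl/6 x 129Sv F1 mice of 6 to 7 weeks, whose whole-thymus suspensions had 4 h of rest before 3 h on plate-bound αCD3 or in mock-treated wells, so that each mouse gave 1 αCD3 and 1 mock array, 12 in all. The *Lck-Cre* transgene is active from the DN4 stage, so earlier thymocytes and cells other than T-cells in these suspensions keep *Med23*. Replicate numbers only name the mice and do not pair them across genotypes. The arrays measured RNA of the mixed suspension, in which fewer cells of a type and less RNA per cell cannot be told apart.

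*Med23* itself (95616_at) had signals of 252 and 239 in αCD3-treated and 268 and 207 in mock-treated null thymocytes, against 310 to 489 and 288 to 424 in control thymocytes. Every null array lay below every control array of the same treatment, as in 8.61% of all probe sets after αCD3 and 8.44% after mock treatment. The log2 differences of -0.59 after αCD3 and -0.53 after mock treatment did not pass the limma test (adjusted p = 0.738 and 0.621). It is not known here whether these probes lie in the deleted exons. Of 13 thymocyte markers 10 were on the array, and all 10 had mean signals of at least 100. Their signals summed to 85771 to 87907 in null and 89830 to 90381 in control thymocytes after αCD3, and to 82529 to 88505 in null and 96093 to 101713 in control thymocytes after mock treatment, so that the null sums were the lower ones under both treatments. The αCD3 array of *Med23flox/flox* replicate 1 stood apart, with a lower quartile of 85.2 where the other 11 arrays had at most 58.2, and a mean correlation of 0.905 with the other arrays, which had 0.937 to 0.945. For *Fos*, *Fosl2* and *Junb*, some values are also given without that mouse.

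Promoter sequence is shown for *Fos* and *Junb*, the genes with a probe set that was higher after αCD3 in every control mouse, and for *Jun*, which had no such probe set. The 250 bases before the annotated start of each gene are printed 5′ to 3′ on the strand of the gene, from RefSeq on GRCm38.p6. Capitals mark TGACG, the core of the cAMP response element bound by CREB and ATF factors, TGACATCA, the variant that ATF2 and JUN bind in *Jun*, the MEF2 site of *Jun*, and TATAAA.
Fos, chr12:85473640-85473889, plus strand: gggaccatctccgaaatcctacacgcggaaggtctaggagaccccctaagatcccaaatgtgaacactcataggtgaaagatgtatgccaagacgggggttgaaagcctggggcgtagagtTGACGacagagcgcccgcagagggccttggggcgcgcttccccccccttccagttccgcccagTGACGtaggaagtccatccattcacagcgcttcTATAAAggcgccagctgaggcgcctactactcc
Junb, chr8:84978749-84978998, minus strand: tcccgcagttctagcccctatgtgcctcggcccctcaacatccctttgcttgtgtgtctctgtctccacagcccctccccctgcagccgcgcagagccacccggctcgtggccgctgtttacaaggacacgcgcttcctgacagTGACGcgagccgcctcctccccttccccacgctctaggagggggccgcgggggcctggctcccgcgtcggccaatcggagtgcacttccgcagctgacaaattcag
Jun, chr4:95052223-95052472, minus strand: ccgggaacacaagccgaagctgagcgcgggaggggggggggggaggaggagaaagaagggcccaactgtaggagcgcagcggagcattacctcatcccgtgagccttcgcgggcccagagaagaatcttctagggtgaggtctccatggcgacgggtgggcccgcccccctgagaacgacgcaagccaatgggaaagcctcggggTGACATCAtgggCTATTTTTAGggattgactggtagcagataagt

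The *Fos* window held TGACG starting 129 and 66 bases before the annotated start and TATAAA starting 33 bases before it. The *Junb* window held TGACG at 106 bases and the *Fosb* window at 60 bases, and the *Jun* window TGACATCA at 45 and the MEF2 site at 33 bases before the start. Both strands were searched in the windows of all 32817 annotated starts, of which 17.7% held TGACG, 12.4% TATAAA, 2.93% TGACATCA and 0.104% the MEF2 site in the letters seen in *Jun*. The AP-1 site TGANTCA (6.75% of windows) and the CArG box that SRF binds (1.47%) had no match in the 250-base windows of the 6 members. Sequence farther from the start was not searched, so a site there would not have been found. The EGR site GCGNGGGCG (4.7%) was matched in those of *Fosb* and *Fosl2*, which are not printed, and CCAAT (33.8%) in those of *Jun* and *Junb*, where it is not marked. The window of *Jund* held none of the 8 motifs searched. None of the marked matches overlapped another. These are matches of letters and not measured sites.

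*Fos* encodes the FOS partner of JUN in the classical AP-1 dimer. Its leading probe set, the one with the highest mean signal (160901_at), had αCD3 signals of 272 and 338 in the null mice, 259 and 377 in the *Lck-Cre* mice and 259 and 497 in the *Med23flox/flox* mice. Its mock signals were 91.4 and 119 in the null mice, 67.1 and 105 in the *Lck-Cre* mice and 64.7 and 19.6 in the *Med23flox/flox* mice. All 6 αCD3 arrays were thus above all 6 mock arrays, and 4 of the mock arrays were below 100. Among the 9478 probe sets tested, 0.707% were separated in this way, and *Fos* 160901_at was the only one of the 8 member probe sets among them.

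Within each mouse, *Fos* 160901_at was 2.97-fold and 2.83-fold higher after αCD3 in the null mice, 3.86-fold and 3.58-fold in the *Lck-Cre* mice, and 4.01-fold and 25.4-fold in the *Med23flox/flox* mice. The 25.4-fold value belongs to the mouse with the mock signal of 19.6, which was below the lower quartile of its array, so that its size is not well measured, and the other 5 ratios lay between 2.83 and 4.01. On the log2 scale, with 50 added to each signal, the change was 1.19 (SE 0.39, 95% interval 0.25 to 2.13, n = 2) in null and 1.82 (SE 0.28, 95% interval 1.15 to 2.48, n = 4) in control mice. Here and below, null and control means share an estimate of the spread over all 6 mice. The SE of a null mean is thus not the scatter of the 2 null mice, whose log2 changes were 1.186 and 1.194 here. Neither mean passed the limma test over all probe sets (adjusted p = 0.814 and 0.0926), in which 0.0317% of probe sets in null and 0.148% in control mice rose and none fell, with 508 and 737 at an unadjusted p under 0.05. By p, *Fos* 160901_at was the 236th of the 9478 probe sets in null mice and the 39th in control mice.

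Taken over all 6 mice, a comparison added after the data had been seen, the change in *Fos* 160901_at was 1.61 (SE 0.24, adjusted p = 0.0471, higher in 6 of 6 mice), and it was the only member probe set to pass, where 0.327% of all probe sets rose and 0.0317% fell. At an unadjusted p under 0.05 there were 2 members (with *Junb* 102362_i_at), beside 7.75% of all probe sets. The call for *Fos* was made in 6 of 16 alternative settings, and leaving out any mouse other than *Med23flox/flox* replicate 2 ended it (adjusted p from 0.0979 to 0.170). Without the mouse as a block, *Fos* 160901_at also passed in control mice alone (adjusted p = 0.00899).

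The second *Fos* probe set (161716_at) was below 100 on 8 of the 12 arrays. Its mean reached 100 only in αCD3-treated *Lck-Cre* thymocytes (117), so its control values after αCD3 draw on the condition that let it pass the filter. Its αCD3 signals were 63.6 and 109 in the null mice, 152 and 80.9 in the *Lck-Cre* mice and 57.6 and 118 in the *Med23flox/flox* mice, while its mock signals were 71.4 and 113 in null thymocytes, against 11.4 to 85.3 in those of control mice. It was higher after αCD3 in all 4 control mice (1.39-fold to 13.4-fold, the highest over a mock signal of 11.4) and slightly lower in both null mice (0.891-fold and 0.964-fold). The log2 change was -0.07 (SE 0.35, adjusted p = 0.999) in null and 0.75 (SE 0.24, adjusted p = 0.516) in control mice, and the difference between them, -0.82 (95% interval -1.83 to 0.19), did not pass (adjusted p = 0.992). Its mock signals overlapped between null and control mice, with the highest mock signal in a null mouse. The pair of *Fos* probe sets moved the same way in 4 of 6 mice, and their correlation over the 12 arrays was 0.51.

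**Figure D1:**
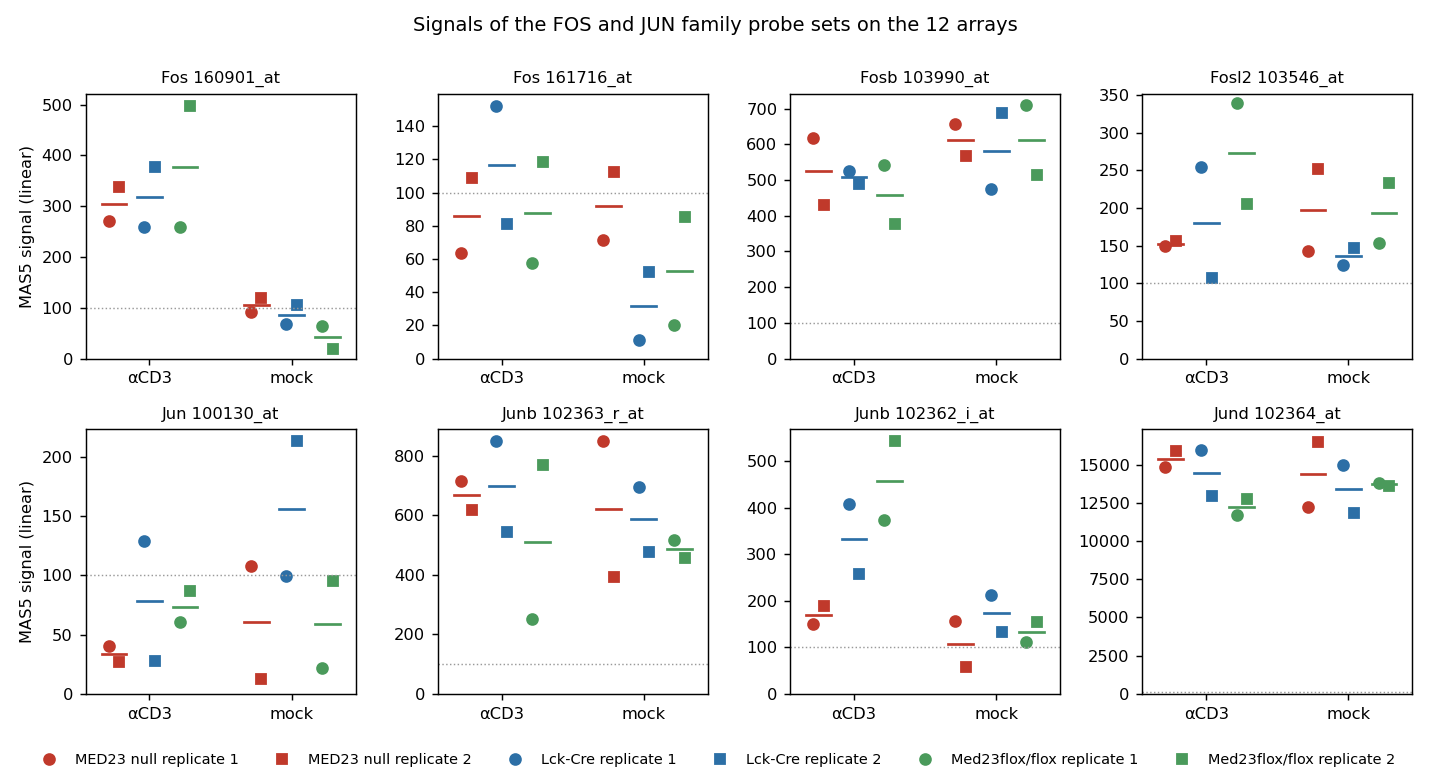
MAS5 signal (linear axis from 0) of the 8 member probe sets on the 12 arrays, with αCD3 arrays left of mock arrays and, within each, MED23 null (red), *Lck-Cre* (blue) and *Med23flox/flox* (green). Circles are replicate 1, squares replicate 2, horizontal bars the mean of 2 mice, and the dotted line a signal of 100. *Fos* 160901_at separates all αCD3 arrays (259 to 497) from all mock arrays (19.6 to 119), and *Junb* 102362_i_at after αCD3 is lower in both null arrays (149.5 and 189) than in the 4 control arrays.

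*Fosb* encodes a FOS family subunit, and its mRNA is induced with that of *Fos* in many cell types. Its signals (103990_at) were 618 and 431 in null and 376 to 541 in control thymocytes after αCD3, and 657 and 568 in null and 474 to 711 in control thymocytes after mock treatment, so that all groups overlapped. The αCD3 signal was the lower one in both null mice (0.940-fold and 0.759-fold) and in 3 of 4 control mice (0.712-fold to 0.762-fold), with *Lck-Cre* replicate 1 at 1.11-fold. The log2 change was -0.22 (SE 0.21, adjusted p = 0.999) in null and -0.27 (SE 0.15, adjusted p = 0.704) in control mice. Of all probe sets, 26.3% were below mock in both null mice, and so were 2 of the 8 member probe sets (*Fosb* and *Fos* 161716_at).

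*Fosl2* encodes FRA2, a FOS family subunit without the transactivation domain of FOS. Its signals (103546_at) after αCD3 were 149 and 156 in the null mice, 254 and 107 in the *Lck-Cre* mice and 340 and 206 in the *Med23flox/flox* mice, against mock signals of 142 and 251, 125 and 147, and 154 and 233. The ratios were 1.05 and 0.622 in null mice, and they were split in each control genotype, with 2.04 and 0.731 in the *Lck-Cre* and 2.20 and 0.883 in the *Med23flox/flox* mice. The log2 change was -0.25 (SE 0.36, adjusted p = 0.999) in null and 0.32 (SE 0.25, adjusted p = 0.780) in control mice. Without *Med23flox/flox* replicate 1 the control value was 0.11.

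*Junb* encodes a JUN family subunit that is a weaker activator than JUN at single AP-1 sites. It was measured by 102363_r_at, the leading probe set, and 102362_i_at. The suffixes _r_at and _i_at mark probe sets for which not all of the manufacturer's selection rules could be met. On 102362_i_at the αCD3 signals were 149.5 and 189 in the null mice, 409 and 257 in the *Lck-Cre* mice and 373 and 544 in the *Med23flox/flox* mice. Its mock signals were 156 and 58.6, 214 and 134, and 112 and 154. In control mice the lowest αCD3 array was above the highest mock array, which held for 2.65% of all probe sets and for 2 of the 8 member probe sets (with *Fos* 160901_at), whereas the null arrays of both treatments overlapped.

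The ratio for *Junb* 102362_i_at was 0.961 and 3.23 in the null mice, 1.91 and 1.92 in the *Lck-Cre* mice and 3.34 and 3.53 in the *Med23flox/flox* mice, so that control mice were alike within each genotype and the null mice were not. The log2 change was 0.55 (SE 0.33, adjusted p = 0.999) in null and 1.12 (SE 0.24, adjusted p = 0.215) in control mice, and the difference of -0.57 had a 95% interval of -1.54 to 0.41. On the leading probe set the picture was another one. *Junb* 102363_r_at had αCD3 signals of 716 and 617 in the null mice, 850 and 544 in the *Lck-Cre* mice and 253 and 770 in the *Med23flox/flox* mice, against mock signals of 848 and 393, 695 and 477, and 517 and 457. Its groups overlapped throughout, with log2 changes of 0.18 (SE 0.39) in null and 0.06 (SE 0.27) in control mice, and 0.38 in control mice without *Med23flox/flox* replicate 1, the mouse with the signal of 253. The *Junb* probe sets moved the same way in 5 of 6 mice, and their correlation over the 12 arrays was 0.22.

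*Jun* encodes the main transactivating partner of FOS. Its only probe set (100130_at) was below 100 on 9 of 12 arrays, with αCD3 signals of 40.5 and 27.0 in null and 28.1 to 129 in control thymocytes and mock signals of 108 and 12.6 in null and 22.2 to 213 in control thymocytes. Its mean reached 100 only in mock-treated *Lck-Cre* thymocytes (156), so mock comparisons with that genotype draw on the condition that let it pass the filter. Ratios ran from 0.132 to 2.74, above and below 1 within every genotype. The log2 changes of -0.25 (SE 0.56) in null and -0.24 (SE 0.40) in control mice had 95% intervals of -1.58 to 1.08 and -1.18 to 0.70, and no change of *Jun* was detected within these bounds.

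*Jund* encodes a JUN subunit that is present before stimulation. Its probe set (102364_at) had αCD3 signals of 14840 and 15871 in null and 11715 to 15949 in control thymocytes, and mock signals of 12227 and 16482 in null and 11825 to 15001 in control thymocytes. It was the steadiest member, with ratios between 0.848 and 1.21 in all 6 mice. Both *Lck-Cre* mice were slightly above mock (1.06-fold and 1.09-fold) and both *Med23flox/flox* mice slightly below (0.848-fold and 0.935-fold). Such a split occurred in 5.19% of all probe sets and in 1 of the 8 member probe sets. The log2 change was 0.11 (SE 0.18, 95% interval -0.32 to 0.55) in null and -0.03 (SE 0.13, 95% interval -0.34 to 0.28) in control mice.

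**Figure D2:**
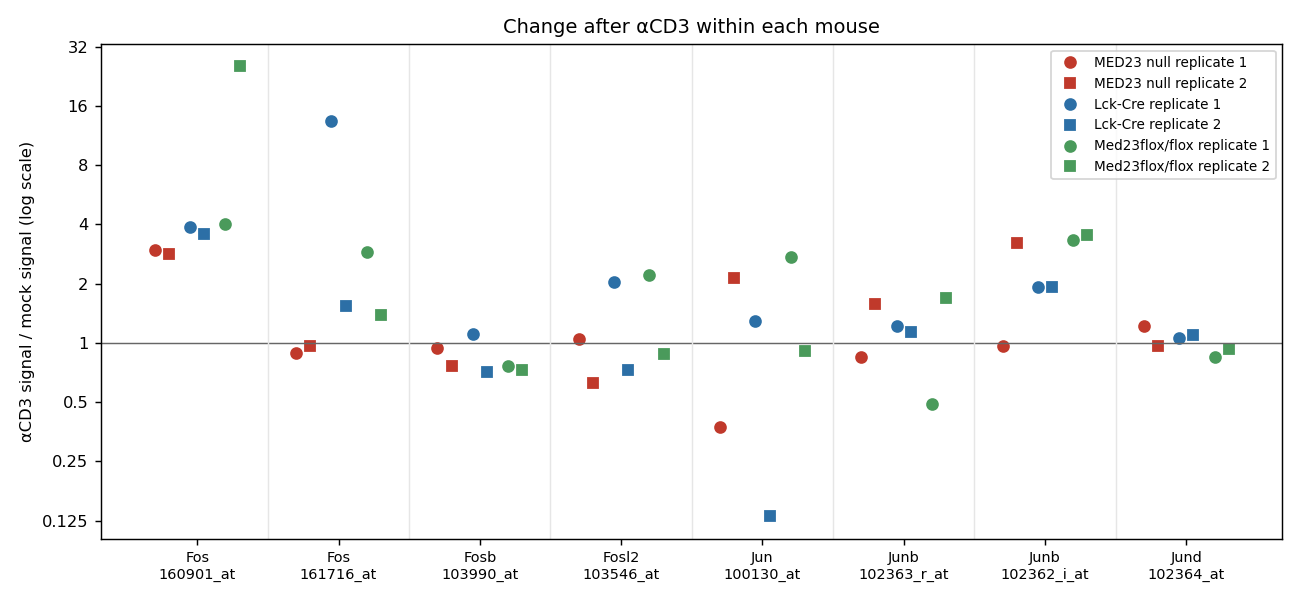
αCD3 signal divided by mock signal, by mouse, on a log axis for the 8 member probe sets, with MED23 null (red) left of *Lck-Cre* (blue) and *Med23flox/flox* (green), circles for replicate 1 and squares for replicate 2, and a line at a ratio of 1. Only *Fos* 160901_at is above 1 in all 6 mice (2.83 to 25.4), and *Jund* stays between 0.848 and 1.21.

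Over the 8 member probe sets, 1 was above mock in both null mice, where 23.2% of all probe sets were, and 3 were above mock in all 4 control mice, where 9.16% were (both *Fos* probe sets and *Junb* 102362_i_at). None was below mock in all 4 control mice (8.68% of all probe sets). The median log2 change of the members was 0.02 in null and 0.19 in control mice, beside -0.02 and 0.0017 for all probe sets tested. With only the leading probe set of each gene it was -0.05 and 0.02. At an unadjusted p under 0.05 there was 1 member probe set in null mice, where 5.36% of all probe sets reached it, and 3 in control mice, where 7.78% did.

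The next comparison asked whether the loss of MED23 changed the response of these genes. The difference in induction was -0.63 for *Fos* 160901_at (95% interval -1.78 to 0.53, adjusted p from limma of 1.00), and both null ratios lay below all 4 control ratios. It was -0.75 without *Med23flox/flox* replicate 1 and -0.24 without *Med23flox/flox* replicate 2. The same was seen for *Fos* 161716_at, which passed the signal filter only through αCD3-treated *Lck-Cre* thymocytes. Thus 2 of 8 member probe sets had both null mice below every control mouse, against 7.42% of all probe sets, and none had both above (6.06%). For the remaining 6 probe sets the difference lay between -0.57 (*Junb* 102362_i_at) and 0.14 (*Jund*), and all 8 intervals included 0. No probe set of the whole array passed this test (0% called, smallest adjusted p = 0.452, 486 at an unadjusted p under 0.05, or 5.13%, none of them a member). The widest interval was that of *Jun* (-1.64 to 1.62) and the narrowest that of *Jund* (-0.39 to 0.67), so that a difference was bounded more closely for *Jund* than for *Jun*.

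After αCD3, the levels of 7 of the 8 member probe sets overlapped between null and control thymocytes. The exception was *Junb* 102362_i_at, with 169 ± 28.1 (SD, n = 2) in null and 396 ± 118 (SD, n = 4) in control thymocytes, and both null arrays below all 4 control arrays. Among all probe sets, 8.61% had both null arrays below every control array, and 6.9% had both above. The log2 difference was -0.99 (SE 0.28, 95% interval -1.65 to -0.33, unadjusted p = 0.00929 and adjusted p = 0.628 in limma), so it did not pass, nor did any probe set of the array (584 at an unadjusted p under 0.05, or 6.16%, 1 of them a member). It was -1.001 without *Med23flox/flox* replicate 1, and stayed below 0 in all 16 alternative settings, with adjusted p from 0.509 to 0.995. The other *Junb* probe set differed by 0.24 (SE 0.43) with that mouse and by -0.09 without it.

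On the same αCD3 arrays the actin 3′ to 5′ ratio was 1.90 and 1.61 in null and 1.35 to 1.41 in control thymocytes. The GAPDH 3′ to 5′ ratio was 0.636 and 0.766 in null and 0.599 to 0.648 in control thymocytes, and so overlapped. Markers of NK and cytotoxic cells, 5 of 6 on the array and 3 with a mean signal of at least 100, summed to 3838 to 4758 in null and 1747 to 2014 in control thymocytes. *Gzma* made up most of that sum (1018 to 4825 over the 12 arrays), while *Klrd1* was at most 316, *Gzmb* at most 217, *Klrk1* at most 136 and *Ncr1* at most 48.9. Erythroid markers (3 of 7 on the array) summed to 15678 to 38226 in null and 6142 to 15315 in control thymocytes, nearly all of it *Hba-a1* (5935 to 37280 over the 12 arrays). Sums of B-cell markers (1524 to 1836 in null and 1390 to 2238 in control thymocytes) and myeloid markers (3421 to 3975 and 2387 to 3990) overlapped. The thymocyte sums given above were lower in null thymocytes. The part of these differences in the *Junb* value was not tested.

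For *Fos* 160901_at the αCD3 signals were 305 ± 46.7 (SD, n = 2) in null and 348 ± 114 (SD, n = 4) in control thymocytes, a log2 difference of -0.13 (SE 0.28, 95% interval -0.80 to 0.54). The order of its 6 condition means was *Med23flox/flox*, *Lck-Cre* and null after αCD3, then null, *Lck-Cre* and *Med23flox/flox* after mock treatment. Neighbours in this order overlapped, except that the lowest αCD3 array (259) was above the highest mock array (119) and that both *Med23flox/flox* mock arrays were below both *Lck-Cre* mock arrays. The nearest of these mock signals were 64.7 and 67.1, and the share of all probe sets split in this way was not counted. The remaining 5 probe sets differed after αCD3 by -0.53 (*Jun*, SE 0.33) to 0.21 (*Jund*, SE 0.19).

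In mock-treated cells no member probe set had both null arrays below (8.44% of all probe sets) or above (9.27%) every control array, and none reached an unadjusted p under 0.05 (7.4% of all probe sets did, and 0% passed after adjustment). *Fos* was somewhat higher in null cells on both probe sets, by a log2 difference of 0.50 (SE 0.31, adjusted p = 0.773) on 160901_at and 0.68 (SE 0.34, adjusted p = 0.712) on 161716_at, at signals near or below 100. The other members lay between -0.52 (*Jun*, SE 0.55) and 0.19 (*Fosl2*, SE 0.26). The median difference of the members was -0.14 after αCD3 and 0.10 after mock treatment, beside -0.01 and 0.01 for all probe sets. With only the leading probe set of each gene it was -0.02 after αCD3 and 0.10 after mock treatment.

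**Figure D3:**
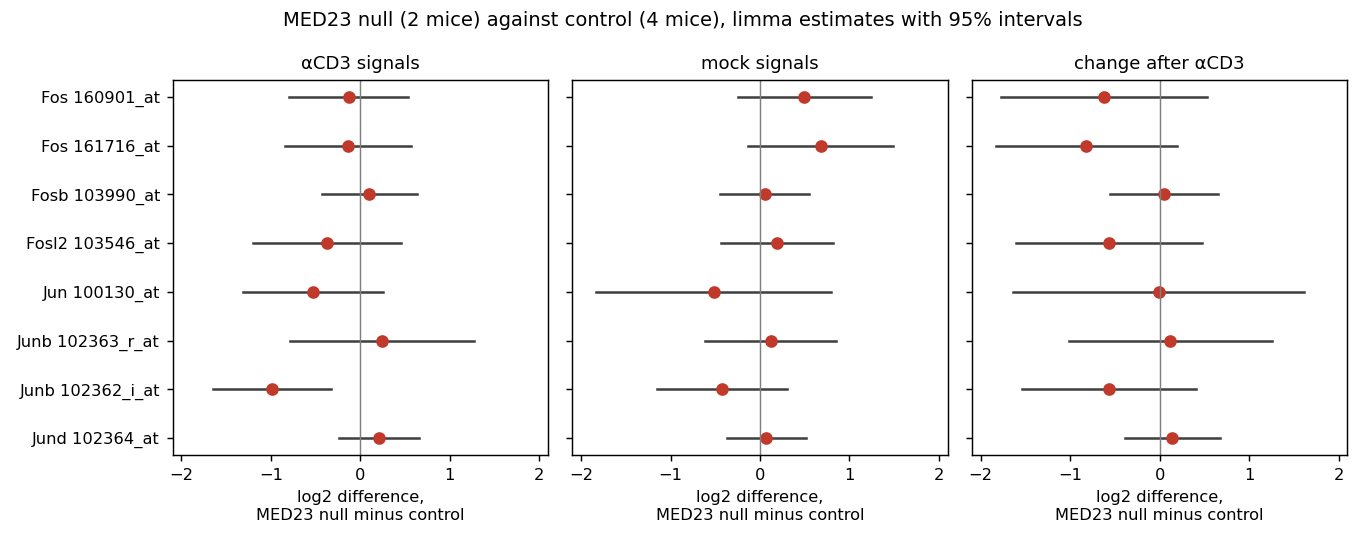
Log2 difference, MED23 null (2 mice) minus control (4 mice), of the 8 member probe sets in αCD3 signals (left), mock signals (middle) and the change after αCD3 (right); points are limma estimates and lines 95% intervals. Only the interval of *Junb* 102362_i_at in αCD3 signals (-1.65 to -0.33) leaves out 0, and its adjusted p is 0.628.

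Each control genotype was also set against null by itself, with the 3 genotypes sharing an estimate of the spread. These pairs share the null arrays, so their values are given side by side. The induction of *Fos* 160901_at in null mice differed by -0.24 (95% interval -1.50 to 1.02) from *Lck-Cre* and by -1.01 (95% interval -2.27 to 0.25) from *Med23flox/flox*, in which the mouse with the 25.4-fold ratio lies. The value against *Med23flox/flox* rested on single mice, and was -1.79 without *Med23flox/flox* replicate 1 and -0.24 without *Med23flox/flox* replicate 2. Its mock signal in null cells was higher by 0.20 (SE 0.30) than in *Lck-Cre* and by 0.79 (SE 0.30, unadjusted p = 0.0402, adjusted p = 0.645) than in *Med23flox/flox* cells. These were low signals, of 91.4 and 119 in null and 64.7 and 19.6 in *Med23flox/flox* cells. *Fos* 160901_at was the only member under an unadjusted p of 0.05 against *Med23flox/flox* (7.34% of all probe sets), and none was against *Lck-Cre* (7.3%). That mock difference was 1.15 without *Med23flox/flox* replicate 1 and 0.43 without *Med23flox/flox* replicate 2. Its αCD3 signal differed by -0.04 and -0.22 (SE 0.34 each), and the value against *Med23flox/flox* was -0.63 without replicate 1 and 0.19 without replicate 2 of that genotype.

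For *Junb* 102362_i_at the αCD3 signal in null cells was lower than in both control genotypes, by a log2 difference of -0.78 (SE 0.30, 95% interval -1.51 to -0.05) against *Lck-Cre* and -1.20 (SE 0.30, 95% interval -1.93 to -0.47) against *Med23flox/flox*, with adjusted p of 0.979 and 0.555. It was the only member at an unadjusted p under 0.05 in either comparison, beside 4.83% and 7.72% of all probe sets. Its induction differed by -0.22 (SE 0.42) and -0.92 (SE 0.42). *Fos* 161716_at differed in induction by -1.10 (SE 0.47) and -0.53 (SE 0.47). The remaining 5 probe sets had induction differences between -0.49 (*Fosl2*) and 0.49 (*Jun*) against *Lck-Cre* and between -0.64 (*Fosl2*) and 0.29 (*Junb* 102363_r_at) against *Med23flox/flox*, and no member passed either test, nor did any probe set (409 and 607 at an unadjusted p under 0.05, or 4.32% and 6.4%, none of them a member).

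To see whether the controls differed among themselves, mock signals of *Lck-Cre* were set against those of *Med23flox/flox* mice. No member passed (0% of all probe sets called, 535 at an unadjusted p under 0.05, or 5.64%, none of them a member). The difference was 0.59 (SE 0.30) for *Fos* 160901_at (0.95 without *Med23flox/flox* replicate 1 and 0.23 without *Med23flox/flox* replicate 2), 0.95 (SE 0.57) for *Jun* and -0.38 (SE 0.29) for *Fosl2*, and between -0.30 and 0.28 for the others. The differences between the control genotypes thus ran from -0.38 to 0.95, where those between null and control mock signals ran from -0.52 to 0.68. The 0.95 and the -0.52 are both those of *Jun*, which passed the signal filter only through mock-treated *Lck-Cre* thymocytes. Without *Jun* the ranges were -0.38 to 0.59 and -0.42 to 0.68.

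Genes around the members were grouped into lists from textbook knowledge, each gene by its leading probe set. Of 21 tested genes of other bZIP factors, which share the leucine zipper with FOS and JUN, none passed in null or control mice, and the median log2 change was 0.02 in null and 0.0014 in control mice. *Crem*, which encodes a cAMP response factor and its early repressor form, had the highest control value at 0.91 (adjusted p = 0.235) with 0.69 in null mice, and *Cebpd* the lowest at -0.69. In null mice *Atf3* was highest at 0.81 and *Creb1* lowest at -0.73. Of 22 genes of the MAPK pathway to AP-1 none passed, with medians of -0.02 in null and 0.10 in control mice. The phosphatase gene *Dusp2* had 0.31 in null and 0.92 in control mice (adjusted p = 0.0913), and *Araf*, which encodes a RAF kinase, had -0.14 and -0.38.

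Of 15 factors that act on *Fos* and *Jun* promoters none passed, with medians of -0.04 in null and -0.07 in control mice. *Elk4*, an ETS factor that joins SRF on the *Fos* promoter, had -0.12 in null and 0.74 in control mice, and *Yy1* -0.17 and -0.31. Of 10 genes whose products act on AP-1 proteins, 1 rose in control mice, *Nfatc1*, whose product binds DNA beside AP-1, at 1.57 (SE 0.16, adjusted p = 0.0268), and it had 0.82 (adjusted p = 0.629) in null mice. *Nfatc3* had the lowest control value at -0.18, and the ubiquitin ligase gene *Cop1* the lowest null value at -0.50.

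Of 14 tested target genes of AP-1 or NFAT with AP-1, the chemokine gene *Ccl4* rose in both null (2.51, adjusted p = 0.0497) and control mice (2.76, adjusted p = 0.00274), and none fell. The median of that list was 0.41 in null and 0.62 in control mice. *Tnfrsf9* had its lowest values, -0.63 and -0.20. Of 21 other immediate early genes, *Nr4a1* rose in null mice (2.93, adjusted p = 0.0117), and *Nr4a1* (3.41), *Egr2* (3.01), *Nab2* (1.80) and *Ier2* (1.55) rose in control mice with adjusted p from 0.000419 to 0.0108. The medians were 0.42 in null and 0.60 in control mice. By leading probe set, as the lists were taken, those of the 6 FOS and JUN members were -0.05 and 0.02, and *Fos* 160901_at had 1.19 and 1.82. *Klf2*, a quiescence factor gene, had the lowest control value at -0.98. Of 11 genes of cell dissociation and heat shock, which are known to rise with *Fos* when tissue is dissociated, none passed in null or control mice, with medians of 0.01 and 0.14. *Hsph1* was highest in control mice at 1.08 (adjusted p = 0.161). Between null and control cells, no gene of any list passed in αCD3 signals, mock signals or induction.

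**Figure D4:**
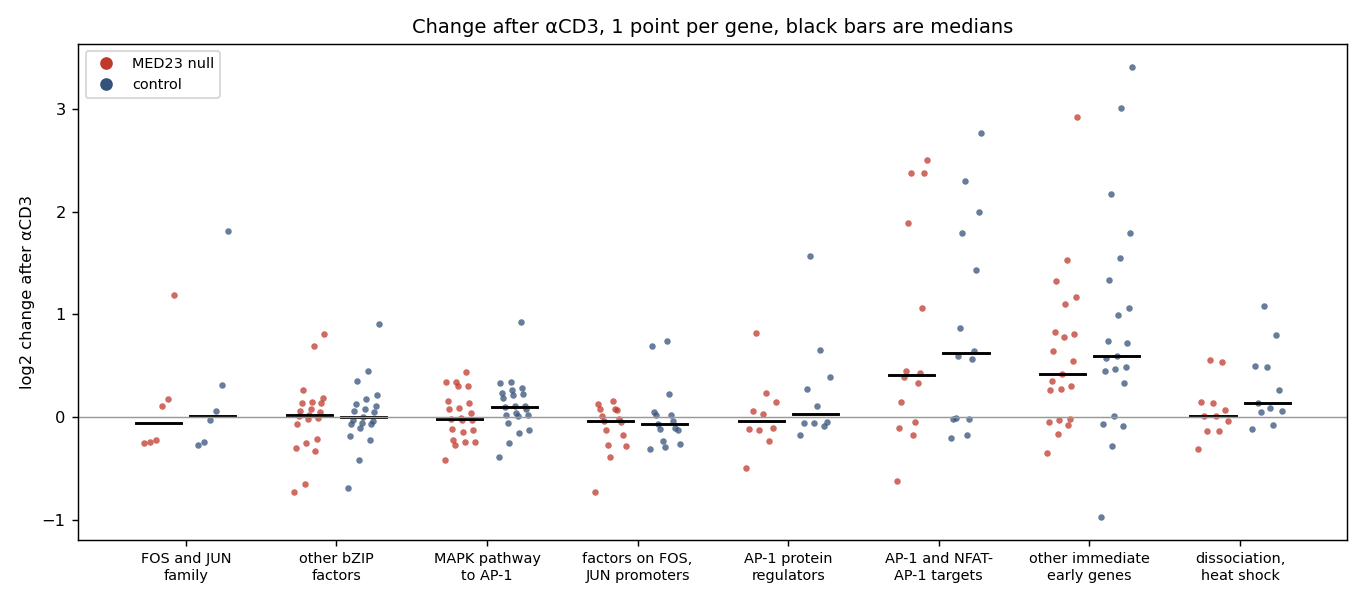
Log2 change after αCD3 of the 6 FOS and JUN members (leading probe sets) and of the genes of 7 lists, 1 point per gene, with MED23 null (red) left of control (blue) and black bars at the medians. *Fos* stands at 1.19 in null and 1.82 in control mice, and the lists of AP-1 targets and other immediate early genes have medians of 0.41 to 0.62.

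The probe sets of other genes whose signals ran most like each member over the 12 arrays were found by Pearson correlation, given as a description, since arrays share mouse, genotype and treatment. Those most like *Fos* 160901_at were *Crem* (0.93, on another probe set than the one in the list above), *Ccl4* (0.93) and *Itm2a* (0.92). All 3 had higher mean signals after αCD3 than after mock treatment, with 2076 in null and 2593 in control thymocytes after αCD3 and 582 and 643 after mock treatment for *Itm2a*, which encodes a membrane protein of activated thymocytes. The probe sets most like *Fosb* were *Pimreg* (0.90), *Mfge8* (0.89) and *Mcrip1* (0.86), and those most like *Fosl2* were *Mtm1* (0.95), *Pld1* (0.90) and *Arap3* (0.86).

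*Jun* ran most like *Adam7* (0.92), *Hadhb* (0.89) and *Cdk5r2* (0.84), *Junb* 102363_r_at like *Sun2* (0.90), *H2-K1* (0.86) and *Tomm34* (0.84), and *Jund* like *Rab3a* (0.92), *Gm13205* (0.86) and *Stat3* (0.86). Probe sets of the member's own gene were not eligible. Those of the other members were, and none of them is among the probe sets named here. The lowest correlation with any probe set was of like size for every member, between -0.87 and -0.91.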

How the data were processed

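RNA of 12 thymocyte suspensions (6 mice, each with 1 αCD3 and 1 mock array) was hybridised to Affymetrix U74Av2 arrays. The authors deposited MAS5 signal intensity values, per the labels and the submitters' processing notes, scaled to a common trimmed mean, and the deposited values differed from a common 2% trimmed mean by at most 0.00603%. MAS5 subtracts mismatch probes, which makes low signals variable. Here 50 was added to each signal before log2, and 66 control probe sets were left out. Probe sets whose mean over the mice reached 100 in any of the 6 conditions were kept (9478 of 12488). Of all probe sets, 10855 had 1 gene symbol in the platform annotation (10839 matched by Entrez ID), 396 several and 1237 none, and only the first were named.

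Comparisons used limma 3.58.1 in R 4.3.3 (lmFit and eBayes) with Benjamini-Hochberg adjustment over the 9478 probe sets and a threshold of 0.05. Induction was the αCD3 minus mock log2 difference within each mouse, and levels were compared within a treatment. All groups of a fit shared an estimate of the spread, so an SE or interval given for null mice is not their own scatter. The mouse identifiers in the labels pair αCD3 and mock arrays. As a check, the deviations of same-mouse arrays from their group means correlated at 0.094 in *Lck-Cre*, 0.149 in *Med23flox/flox* and 0.061 in null mice. Tables and figures were made with Python 3.11.15, numpy 2.4.6, pandas 2.3.3 and matplotlib 3.10.9. The fit was tested on simulated data.

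All member probe sets are named, with the 3 probe sets most correlated with each leading one. From the 7 gene lists, genes that passed in null or control mice are named, with some of the highest or lowest. *Xcl1*, *Tnf*, *Ccl3* and *Myc* passed only in the comparison over all 6 mice. *Itm2a*, *Crem* and *Ccl4* were named beside *Fos* for their correlation with it. Members and lists were chosen with earlier results of these data known. The alternatives were the pseudocount, the signal filter, the scaling, a variance trend, single control genotypes, the block and leaving out each mouse. The comparison over all 6 mice was added after the data had been seen. With 2 mice per genotype, the number of arrays limits the precision. Detection calls were not used.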

Additional observations from a re-analysis of the deposited data

Results flagged for a closer look

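Among the 4 control mice, 3 of the 24 groups of ratios and signals looked at held a value far from the others by Dixon's criterion at the 95% level, which sets the gap to the nearest value against the range, and chance flags about 1 in 20. The αCD3 to mock ratio of *Fos* 160901_at was 25.4 in *Med23flox/flox* replicate 2, against 3.58 to 4.01 in the other 3 control mice. The ratio of *Fos* 161716_at was 13.4 in *Lck-Cre* replicate 1, whose mock signal was 11.4, against 1.39 to 2.88 in the other 3. Both of these ratios have a mock signal below the lower quartile of its array as denominator (19.6 and 11.4), so their size is not well measured. The ratio of *Fosb* was 1.11 in *Lck-Cre* replicate 1, against 0.712 to 0.762 in the other 3.

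In 2 cases all mice of one group moved the opposite way to all mice of another. *Fos* 161716_at was below mock in both null mice and above it in all 4 control mice, as were 1.83% of all probe sets, with a log2 difference of -0.82 and an adjusted p of 0.992 in limma. It passed the signal filter only through αCD3-treated *Lck-Cre* thymocytes. *Jund* was above mock in both *Lck-Cre* mice and below it in both *Med23flox/flox* mice, with a log2 difference of 0.28 that was not tested.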

How the results depend on the processing

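No member passed in any of the 12 planned comparisons, and this held under every alternative run except 1. Without a replicate block, with αCD3 and mock arrays taken as independent, 1 member probe set passed in control mice (*Fos* 160901_at, adjusted p = 0.00899). With the replicate number as a replicate block in the comparisons of levels, 0 passed, and *Junb* 102362_i_at after αCD3 stayed at -0.99 (adjusted p = 0.674). The replicate block changed no other call. Over all 6 mice, the count of 1 became 0 with a pseudocount of 16 (adjusted p = 0.0900), no filter (0.0576), a variance trend (0.153), *Lck-Cre* controls alone (0.0587) or *Med23flox/flox* controls alone (0.387), and ranged from 0 to 1 as each mouse was left out. Of 56 differences of members followed, 28 changed sign under some alternative, and the cause was not tested.

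With a single control genotype or another scaling, control induction became 0.26 for *Jun* (*Med23flox/flox* alone), -0.0030 (quantile) and -0.11 (*Med23flox/flox* alone) for *Junb* 102363_r_at, and 0.075 (quantile) and 0.11 (*Lck-Cre* alone) for *Jund*. The difference in induction became 0.017 (pseudocount of 16), 0.0086 (10% trim), 0.12 (quantile) and 0.49 (*Lck-Cre* alone) for *Jun*, and with *Lck-Cre* alone -0.065 for *Fosb* and -0.043 for *Junb* 102363_r_at, whose αCD3 difference became -0.033. 

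As each mouse was left out, control induction ranged from -0.53 to 0.26 for *Jun*, -0.15 to 0.38 for *Junb* 102363_r_at and -0.082 to 0.040 for *Jund*. Null induction ranged from -0.55 to 0.052 for *Fosl2*, -0.80 to 0.30 for *Jun*, -0.23 to 0.59 for *Junb* 102363_r_at, -0.043 to 1.14 for *Junb* 102362_i_at and -0.054 to 0.28 for *Jund*. The difference in induction ranged from -0.090 to 0.19 for *Fosb*, -0.56 to 0.54 for *Jun*, -0.29 to 0.53 for *Junb* 102363_r_at, -1.16 to 0.023 for *Junb* 102362_i_at (-0.81 to 0.37 against *Lck-Cre*) and -0.025 to 0.31 for *Jund*. Mock differences ranged from -0.046 to 0.15 for *Fosb*, -0.13 to 0.51 for *Fosl2*, -1.19 to 0.15 for *Jun*, -0.39 to 0.63 for *Junb* 102363_r_at, -0.88 to 0.040 for *Junb* 102362_i_at (-0.74 to 0.18 against *Med23flox/flox*), -0.14 to 0.29 for *Jund* and -0.0059 to 0.40 for *Fos* 160901_at against *Lck-Cre*. After αCD3 they ranged from -0.27 to 0.036 for *Fos* 160901_at (-0.27 to 0.19 against *Lck-Cre* and -0.63 to 0.19 against *Med23flox/flox*), -0.38 to 0.10 for *Fos* 161716_at, -0.14 to 0.34 for *Fosb* and -0.088 to 0.44 for *Junb* 102363_r_at. *Jun* was below 100 on 9 and *Fos* 161716_at on 8 of 12 arrays.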
